A study of Mus musculus with 5 samples.

Results

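The variable (V) segments of the T-cell receptor alpha and beta chains were counted in single T cells from mouse B16-F10 melanomas. The members are all genes of the count tables whose symbol starts with Trav or Trbv. They number 163 of 28692 genes, 128 of them Trav and 35 Trbv, and were chosen by name and not by level. There were 5 libraries, each a treatment of its own: the anti-PD1-IL15 protein fusion (fusion), the IL15 superagonist given with anti-PD1 (combination), the IL15 superagonist alone, anti-PD1 alone, and saline (PBS). All mice carried tumors of B16-F10, a mouse melanoma line, from 500000 cells placed under the skin. Tumors were taken on day 11, and live CD45-positive cells were sorted from them and sequenced from the 5' end of transcripts, with about 16000 cells loaded per library. For combination, the title names the superagonist and the treatment tag names IL15; the title was followed. The series' text places treatment after resection. It does not state the strain, age or number of mice per library, or whether animals were pooled. Since each treatment has 1 library, no test between treatments was possible. The exact 95% intervals below cover counting error only.

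Each T cell joins a V segment to a J segment (and a D segment in the beta chain) while it matures in the thymus, and all its offspring carry the same pair of rearranged chains. The junction, CDR3, makes most of the contact with the peptide. The beta chain has a pair of constant genes, Trbc1 and Trbc2, each behind its own D and J segments, whereas the alpha chain has Trac alone. Alpha rearrangement often proceeds on both chromosomes, whereas beta rearrangement is mostly held to one. Much of the mouse alpha locus is duplicated, and the copies carry a d or n in their names. These counts hold no junction, so cells that share an alpha and a beta V segment may belong to one clone or to several.

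The segments of the leading alpha-beta pair in each library are shown first, because the later results turn on them. Each line gives the last 60 bases of the annotated V transcript, which run past the codon of the conserved cysteine, where CDR3 begins, to the end of the germline segment. The capitals mark that codon where a script found it behind a tyrosine codon and another codon; no capitals were set in Trbv19 and Trbv1. Trav6-4 and Trbv3 led in fusion, Trav14d-3-dv8 and Trbv19 in combination, Trav13n-1 and Trbv1 in IL15 superagonist, Trav1 and Trbv19 in anti-PD1, and Trav7-5 and Trbv23 in PBS.
Trav6-4: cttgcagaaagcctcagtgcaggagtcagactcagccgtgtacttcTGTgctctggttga
Trbv3: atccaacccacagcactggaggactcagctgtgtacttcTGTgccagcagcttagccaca
Trav14d-3-dv8: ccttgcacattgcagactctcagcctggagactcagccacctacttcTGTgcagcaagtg
Trbv19: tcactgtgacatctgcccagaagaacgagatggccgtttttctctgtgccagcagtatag
Trav13n-1: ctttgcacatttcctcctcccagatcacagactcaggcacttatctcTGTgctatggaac
Trbv1: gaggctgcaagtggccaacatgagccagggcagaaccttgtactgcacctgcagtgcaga
Trav1: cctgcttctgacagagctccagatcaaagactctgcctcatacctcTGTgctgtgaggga
Trav7-5: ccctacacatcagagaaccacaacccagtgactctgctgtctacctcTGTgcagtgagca
Trbv23: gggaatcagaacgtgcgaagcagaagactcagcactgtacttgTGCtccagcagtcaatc

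All 163 members matched the GENCODE M21 annotation of GRCm38/mm10 by identifier, the 128 Trav on chromosome 14 and the 35 Trbv on chromosome 6. Trav6-4 lies at chr14:53454296-53454784, Trav14d-3-dv8 at chr14:53078452-53079045, Trav13n-1 at chr14:53162399-53162910, Trav1 at chr14:52427928-52428876 and Trav7-5 at chr14:53530786-53531313, all on the plus strand. Trbv19 lies at chr6:41178375-41179048, Trbv3 at chr6:41048290-41048828, Trbv1 at chr6:40891229-40891885 and Trbv23 at chr6:41216073-41216526, also on the plus strand. The annotation classes 108 Trav and 22 Trbv as V genes and the other 20 Trav and 13 Trbv as pseudogenes. In CD8 T cells, 77 of the 108 Trav genes and all 22 Trbv genes had UMIs, 25397 and 99680 in all. The pseudogenes held 152 alpha and 274 beta UMIs there. In all, 47 members had no UMI in any barcode.

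How far a segment can be told from its copies differs between the chains. No Trbv transcript was at least 95% identical to another. Of the 128 Trav, 108 had such a neighbour and 42 had one that was 100% identical over the shorter transcript; the 42 hold 5 of the 3313 alpha-assigned CD8 T cells (0.151%), whereas the 108 hold 81.5%. Reads that cover only shared bases cannot be told apart between copies, so the split between Trav copies is less certain than that between Trbv segments. The windows below hold the most differing positions within a pair of copy families that matter later, with the differing bases in capitals. Trav13n-1 differed from Trav13d-1 by 1 base outside the window and from Trav13-1 by 13 bases. Trav10d differed from Trav10n and from Trav10 by 3 bases each.
Trav13n-1: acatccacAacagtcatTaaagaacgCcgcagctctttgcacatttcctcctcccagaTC
Trav13d-1: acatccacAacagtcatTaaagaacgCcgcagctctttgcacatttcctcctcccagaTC
Trav13-1: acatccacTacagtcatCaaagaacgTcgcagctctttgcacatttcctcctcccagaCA
Trav10d: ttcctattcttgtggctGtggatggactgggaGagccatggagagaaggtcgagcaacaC
Trav10n: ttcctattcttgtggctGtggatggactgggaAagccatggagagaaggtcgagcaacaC
Trav10: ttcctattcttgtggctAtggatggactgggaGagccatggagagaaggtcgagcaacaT

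T cells were gated on their transcripts. A CD8 T cell had at least 1 UMI of Cd3e, Cd3d or Cd3g, at least 2 UMIs of Cd8a and Cd8b1, and none of Cd4. There were 6388 such cells in fusion, 3079 in combination, 1839 in IL15 superagonist, 1062 in anti-PD1 and 913 in PBS, with median depths of 9050, 5059, 4596, 6266 and 5509 UMIs. CD4 T cells (Cd4 but neither Cd8 nor Foxp3) numbered 33, 151, 100, 112 and 122 in the same order, and Foxp3+ cells, the regulatory type, 15, 130, 47, 130 and 140. T cells with none of these genes (double-negative) numbered 578, 1106, 1151, 416 and 367. Cd3e, Cd3d, Cd3g and Trac together had 2996 to 4138 counts per 1e6 UMIs (CPM) in the CD8 T cells and 1.56 to 2.78 CPM in cells that were not T cells, and the myeloid markers had 90.5 to 739 CPM and 18323 to 22409 CPM. Across libraries 774 barcodes occurred more than once. Of the 37 cases in which both cells were CD8 T cells with a beta segment, 3 had the same Trbv. With such cells left out, the share of the leading pair and of the leading Trbv, the Trbv to Trbc ratio and the stem-like ratio given below stayed within their intervals in every library where they were computed; the leading pair then held 7.05%, 9.27%, 10.2% and 19.0% in fusion, combination, IL15 superagonist and anti-PD1 and 30.8% in PBS.

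V transcripts were frequent in the 4 treated libraries and scarce in PBS. Trbv UMIs per Trbc UMI in CD8 T cells came to 3.56 in fusion, 2.36 in combination, 2.95 in IL15 superagonist and 1.45 in anti-PD1, against 0.277 (0.261 to 0.294) in PBS. Trav UMIs per Trac UMI came to 0.853, 0.697, 0.977 and 0.483 in the treated libraries in that order, against 0.0877 (0.0771 to 0.0994) in PBS. The constant regions did not share the deficit: Trbc had 2.459, 4.301, 4.238 and 5.186 UMIs per 10000 in the treated libraries and 8.36 in PBS. PBS was also lowest in CD4 T cells, at 4.06, 3.23, 4.94 and 2.32 Trbv UMIs per Trbc UMI, against 0.489 in PBS, and in Foxp3+ cells, at 3.52, 3.48, 2.69 and 2.14, against 0.335 in PBS. Trbv stood at 2.32 to 12.5 UMIs per 10000 in CD8 T cells, against 0.00401 to 0.0647 in cells that were not T cells.

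Against the sum of the treated libraries, the low V level of PBS held for every segment compared, to different degrees. Of the segments with at least 200 UMIs over the treated libraries, 37 of 37 Trav and 21 of 21 Trbv were lower in PBS per constant-region UMI, with median ratios of PBS over the treated libraries of 0.0480 and 0.0586. The filter used the treated libraries alone, so segments frequent only in PBS could not enter, and the counts here are no test. PBS also had the most Trbc (8.364) and Trac (5.021) UMIs per 10000, which lowers its ratios on this scale. The share over all genes is not given for it. The highest ratios were 0.629 (0.384 to 0.976) for Trav4-3 and 0.883 (0.7997 to 0.972) for Trbv14, against 0.0726 for Trbv19. Set against PBS one library at a time, 57 of 58 segments were higher in fusion, 58 in combination, 57 in IL15 superagonist and 53 in anti-PD1. The exceptions were Trbv14 in fusion, Trbv23 in IL15 superagonist, and Trbv5, Trbv14, Trbv23, Trav7-5 and Trav4-3 in anti-PD1. Immunoglobulin light chains were also lowest in V per constant UMI in the B cells of PBS, with 7.57, 8.85, 16.1 and 4.18 Igkv UMIs per Igkc UMI in fusion, combination, IL15 superagonist and anti-PD1 and 1.79 in PBS, where the fusion value rests on 2 cells. What sets PBS apart was not tested, and a library effect and a treatment effect cannot be told apart.

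**Figure D1:**
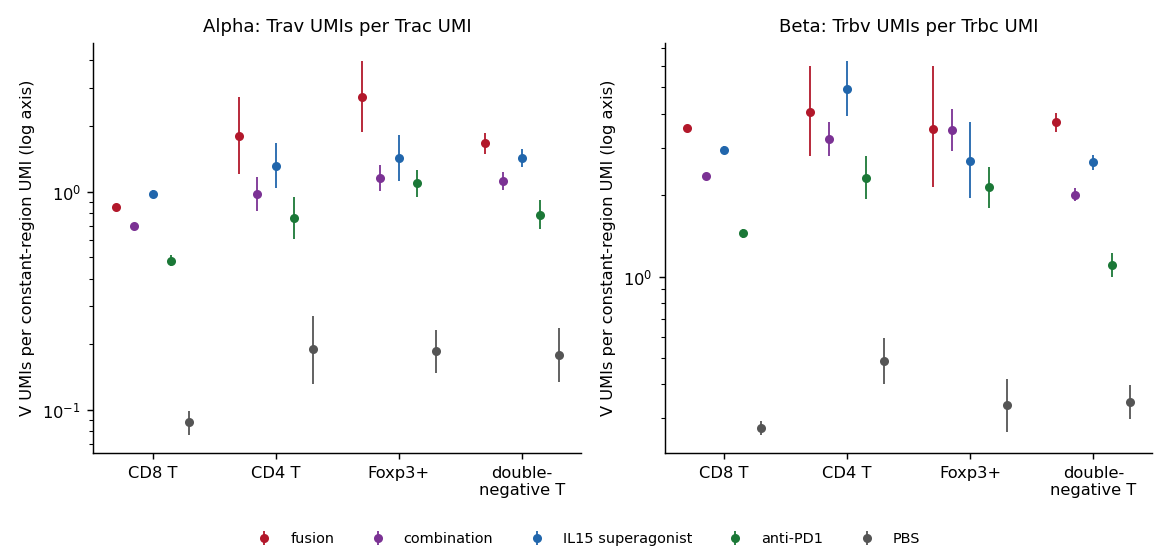
V-segment UMIs per constant-region UMI (log axis) for the alpha chain (left) and the beta chain (right) in 4 gates of T cells, by library. Points are ratios of summed UMIs and bars exact 95% intervals; PBS lies lowest in every gate, at 0.277 for beta in CD8 T cells.

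A segment was assigned to a cell where it had at least 2 UMIs and at least 80% of the V UMIs of its chain. In CD8 T cells a beta segment was assigned in 4000 cells of fusion (62.6%), 1914 of combination (62.2%), 1318 of IL15 superagonist (71.7%) and 683 of anti-PD1 (64.3%), against 242 of PBS (26.5%). An alpha segment was assigned in 27.1%, 24.4%, 28.6% and 25.4% of the treated cells and in 36 cells (3.94%) of PBS. Both chains were assigned in 1233, 533, 386 and 190 treated cells and in 14 of PBS. In cells that were not T cells, at most 1 cell per library had a beta segment, 0.157% in fusion. With each cell thinned to 2000 UMIs, beta was assigned in 38.1%, 43.1%, 53.4% and 36.6% of treated cells and in 12.3% of PBS cells. PBS was lowest at this equal depth too.

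Trbv19 was the most used beta segment of CD8 T cells in each treated library, at 720 of 4000 beta-assigned cells (16.8% to 19.2%) in fusion, 21.7% (19.9 to 23.6) in combination, 19.7% (17.5 to 21.9) in IL15 superagonist and 21.8% (18.8 to 25.1) in anti-PD1. In PBS it was second at 16.9% (12.4 to 22.3). That order depended on the settings: with copies merged into subgroups Trbv13 led in fusion (21.4%), combination (21.6%) and IL15 superagonist (25.1%), and in cells thinned to 2000 UMIs Trbv16 led in anti-PD1 (22.4%). These intervals overlap between most libraries. Trbv16 varied more, at 16.4% in fusion, 9.46% in combination, 5.92% in IL15 superagonist and 19.2% in anti-PD1, against 7.44% in PBS. Trbv13-1 had 12.8%, 10.8%, 14.5% and 8.20% in the treated libraries and 6.61% in PBS, and Trbv13-2 had 7.70%, 7.32%, 6.15% and 2.78%, against 6.20% in PBS.

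Several beta segments stood out in a single library. Trbv14 held 1.45% of beta-assigned CD8 T cells in fusion, 5.38% in combination, 4.48% in IL15 superagonist and 3.08% in anti-PD1, against 74 of 242 cells or 30.6% (24.8 to 36.8) in PBS. The PBS cells with Trbv14 had a median of 5 Trbv UMIs, against 3 in the PBS cells with Trbv19. Their constant regions were mixed, with 350 UMIs of Trbc1 and 290 of Trbc2. Trbv26 held 11.6% (9.27 to 14.2) in anti-PD1, against 0.725% in fusion, 2.09% in combination, 1.52% in IL15 superagonist and 1.24% in PBS. Of its 280 constant-region UMIs in anti-PD1, 75.0% came from Trbc1, against 31.8% over all CD8 T cells of that library. Trbv1 held 9.64% in IL15 superagonist, against 0.900% in fusion, 4.13% in combination, 4.69% in anti-PD1 and 4.55% in PBS. Trbv20 held 8.88% in fusion and 1.32% to 4.28% elsewhere.

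**Figure D2:**
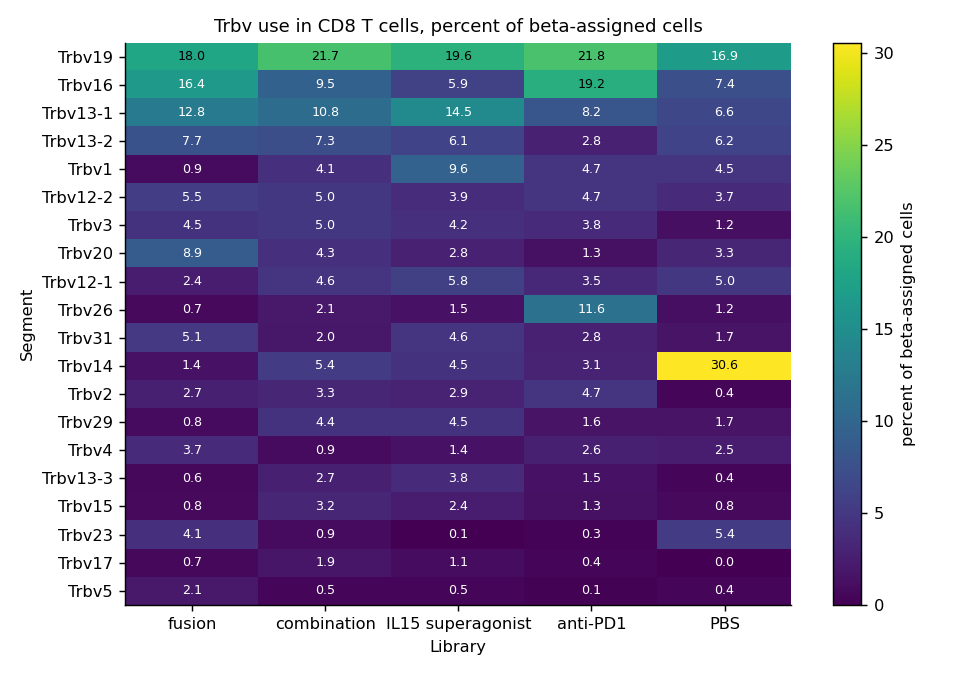
Share of beta-assigned CD8 T cells (percent, color scale) that carry each Trbv segment, with segments as rows and the 5 libraries as columns, fusion at the left and PBS at the right. Trbv19 is high in every column, at 16.9% to 21.8%, and Trbv14 stands out in PBS at 30.6%.

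Alpha use was spread over more segments and differed more between libraries. Trav1, whose product is known from the semi-invariant alpha chain of mucosal-associated invariant T cells, led in fusion with 8.91% of alpha-assigned CD8 T cells and in anti-PD1 with 18.1% (13.7 to 23.3). It had 5.72% in combination, 3.99% in IL15 superagonist and 4 of 36 cells in PBS. Trav13n-1 held 8.62% in fusion and 11.6% in IL15 superagonist, but 0.532% in combination, 0.370% in anti-PD1 and no cell in PBS. Its UMIs in CD8 T cells were 830 in fusion, 28 in combination, 312 in IL15 superagonist, 4 in anti-PD1 and 1 in PBS. Those of its copy Trav13d-1, which differs by 1 base, stayed at 37, 19, 21, 19 and 1, and those of Trav13-1 at 349, 161, 128, 144 and 15. Trav13n-1 thus varied more between libraries than either copy did.

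Trav14d-3-dv8 led in combination with 10.4% and had 4.16% in fusion, with 0.570% in IL15 superagonist, 0.370% in anti-PD1 and 1 cell in PBS. Trav10d was assigned in 38 cells of combination (5.05%) and in none of the other 4 libraries. Trav13n-4 held 6.65% in IL15 superagonist and 0.116% to 0.741% in the other treated libraries. Trav8n-2 held 10.0% in anti-PD1, against 0.289% in fusion, 2.79% in combination and 1.71% in IL15 superagonist. Trav6-4 held 5.78% in fusion and 0.532% to 0.741% in the other treated libraries. To turn the beta use of one treated library into that of another, 14.7% to 29.5% of the cells would have to change segment, with combination and IL15 superagonist nearest. For alpha the range was 39.2% to 49.9%.

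A different alpha-beta pair led in each library. In fusion, Trav6-4/Trbv3 held 87 of 1233 paired CD8 T cells, 7.06% (5.69 to 8.63), followed by Trav13n-1/Trbv16 and Trav7-6/Trbv20 with 73 cells each. In combination, Trav14d-3-dv8/Trbv19 held 49 of 533, 9.19% (6.88 to 11.97), followed by Trav14-1/Trbv13-1 with 33 and by Trav1/Trbv2 with 17, which tied with Trav14-2/Trbv16 and was taken as the third by name. In IL15 superagonist, Trav13n-1/Trbv1 held 40 of 386, 10.4% (7.51 to 13.8), followed by Trav13n-4/Trbv13-1 with 33 and Trav14-3/Trbv13-1 with 22. In anti-PD1, Trav1/Trbv19 held 36 of 190, 18.9% (13.6 to 25.3), followed by Trav8n-2/Trbv16 with 21 and Trav12-2/Trbv26 with 11. In PBS, Trav7-5/Trbv23 held 5 of 14 paired cells, with an interval of 12.8% to 64.9%. When all V UMIs of a chain had to come from 1 segment, Trav7-6/Trbv20 led in fusion (62 of 721) and Trav13n-4/Trbv13-1 in IL15 superagonist (28 of 247). In cells thinned to 2000 UMIs, Trav14-1/Trbv13-1 led in combination (10 of 157) and Trav14-3/Trbv13-1 in IL15 superagonist (13 of 128).

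Among paired cells, those pairs hardly occurred outside their own library. Trav14d-3-dv8/Trbv19, Trav1/Trbv2, Trav13n-4/Trbv13-1 and Trav7-5/Trbv23 had no paired cell in any other library. In fusion, however, 62 of 72 Trav14d-3-dv8 cells and 116 of 154 Trav1 cells had fewer than 2 Trbv UMIs and could not be paired. PBS had only 14 paired cells, so absence from these libraries rests on few cells. Trav1/Trbv19 was the most shared of them, with 9 cells in combination and 1 in fusion besides its 36 in anti-PD1. Each of the remaining ones had 1 to 3 cells elsewhere. Most of them also used their alpha segment almost alone: all 87 paired cells with Trav6-4 had Trbv3, and all 49 with Trav14d-3-dv8 in combination had Trbv19. Trav13n-1 in fusion was split, with 73 of 136 cells on Trbv16 and 55 on Trbv13-1.

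Of 490 pairs seen in CD8 T cells, 319 (65.1%) were found in 1 library, 130 in 2, 34 in 3, 7 in 4 and none in all 5. A pair with 1 cell in all can be found in 1 library only, so this share depends on how many cells were paired. Pairs seen in 1 cell of a library numbered 115 in fusion, 157 in combination, 128 in IL15 superagonist, 42 in anti-PD1 and 7 in PBS. Among the 82 pairs with at least 5 cells in a library, 37 had no cell in another library and 6 reached 5 cells in a second one. Cells drawn at random had the same pair with a probability of 2.49% within fusion, 1.71% within combination, 2.69% within IL15 superagonist and 5.64% within anti-PD1. Between these libraries that probability was 0.0900% to 0.444%. The treated libraries also differed in how far their paired cells gathered in a few pairs. Pairs with at least 5 cells held 80.5% of paired cells in fusion, 37.7% in combination, 43.5% in IL15 superagonist and 50.5% in anti-PD1, shares that grow with the number of cells. At an equal number of 50 cells, 32.7 kinds of pair were expected in fusion, 39.3 in combination, 35.4 in IL15 superagonist and 28.7 in anti-PD1.

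**Figure D3:**
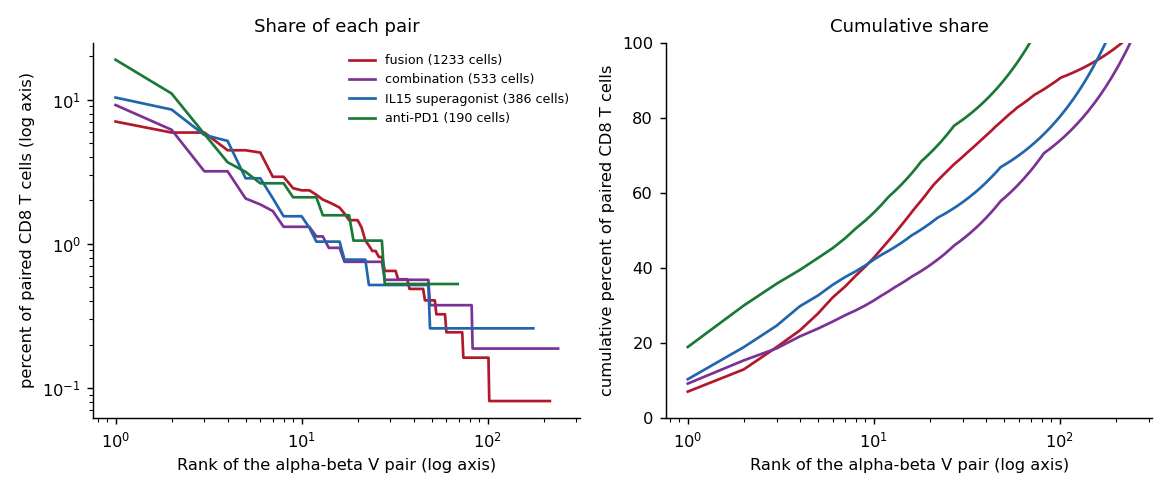
Alpha-beta V pairs of CD8 T cells ordered by their number of cells, for the 4 treated libraries: share of paired cells per pair (left, log axis) and running sum (right), in percent, with rank on the horizontal log axis. The first pair holds 18.9% in anti-PD1 and 7.06% in fusion.

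Pairs shared by libraries could differ in their constant region or in other V transcripts. Trav1/Trbv19 cells had 0 UMIs of Trbc1 and 71 of Trbc2 in anti-PD1, whereas those of combination had 13 and 17. Trav14n-3/Trbv19 had 1 and 25 in combination and 17 and 17 in IL15 superagonist. For Trav6n-6/Trbv13-1, 7 of 7 combination cells also had a Trbv31 UMI, and at most 1 of 10 fusion cells shared any other second beta segment. In Trav3-3/Trbv13-2 no difference in the constant region was seen, with 35 and 36 UMIs of Trbc1 and Trbc2 in fusion and 7 and 7 in combination. The same held for Trav14n-3/Trbv31, with 11 and 13 in fusion and 19 and 26 in anti-PD1. Trav13-1/Trbv29 had 0 and 8 in combination and 2 and 10 in IL15 superagonist, with overlapping intervals.

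Within a library, the constant region separated the pairs. A beta chain uses one constant gene, and Trbc1 made up 40.6% of Trbc UMIs over the CD8 T cells of fusion, 30.0% in combination, 31.2% in IL15 superagonist, 31.8% in anti-PD1 and 39.1% in PBS. Trav13n-1/Trbv16 in fusion had 1 UMI of Trbc1 and 130 of Trbc2, that is 0.763% (0.0193 to 4.18). Trbc1 was also near absent in Trav1/Trbv2 of combination (0 and 83), Trav14-3/Trbv13-1 (2 and 86) and Trav13n-4/Trbv13-1 (3 and 79) of IL15 superagonist, and Trav8n-2/Trbv16 of anti-PD1 (2 and 99). Other pairs had both genes, such as Trav7-6/Trbv20 of fusion with 84 and 151, Trav14-1/Trbv13-1 of combination with 80 and 56, and Trav13n-1/Trbv1 of IL15 superagonist with 82 and 101. Whether the mixed pairs hold several clones was not tested.

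Some pairs came with a further V segment in the same cells. A Trbv12-1 UMI was found in 40 of 87 Trav6-4/Trbv3 cells of fusion (46.0%, 35.2 to 57.0), against 2.62% of the other paired cells of that library. Trav14-3 was found in 22 of 36 Trav19/Trbv23 cells of fusion (61.1%), against 1.34% of others. Trav9-4 was found in 13 of 22 Trav14-3/Trbv13-1 cells of IL15 superagonist (59.1%), against 1.10%, and Trav8d-2 in 9 of 17 Trav14-2/Trbv16 cells of combination (52.9%), against 1.74%. Each of these 4 intervals lay above the share in the other cells. Trbv13-2 was a more general companion, in 57.5% of Trav13n-1/Trbv1 cells of IL15 superagonist and still in 13.6% of the others.

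Cells with a pair of segments of one chain, each with at least 2 UMIs and from different subgroups, were about as frequent for beta as for alpha. Their share for alpha was 13.8% in fusion, 12.4% in combination, 12.4% in IL15 superagonist and 9.27% in anti-PD1, against 4.17% in PBS. For beta it was 16.3%, 12.2%, 13.2% and 8.24%, against 3.99% in PBS. Alpha has fewer UMIs per cell, and among cells with at least 4 V UMIs of the chain alpha led, with 22.1%, 23.3%, 23.2% and 20.2% against 19.0%, 14.9%, 16.3% and 10.9% for beta in the treated libraries. The most frequent beta combination was Trbv13-2 with Trbv16, in 140 CD8 T cells. Droplets with a pair of T cells can add to such counts, and their part was not tested.

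The share of alpha-assigned cells with fewer than 2 Trbv UMIs differed between alpha segments, and between libraries for the same segment. Over all alpha-assigned CD8 T cells, 17.6% had fewer than 2 Trbv UMIs in fusion, 14.5% in combination, 10.5% in IL15 superagonist and 15.2% in anti-PD1, against 19 of 36 cells in PBS. In fusion these were 116 of 154 Trav1 cells (75.3%, 67.7 to 81.9), 62 of 72 Trav14d-3-dv8 cells (86.1%, 75.9 to 93.1) and 31 of 52 Trav10 cells (59.6%). For Trav1 and Trav14d-3-dv8 the share was lower elsewhere, with 5 of 43 Trav1 cells (11.6%) in combination, 8 of 21 (38.1%) in IL15 superagonist and 3 of 49 (6.12%) in anti-PD1, and with 2 of 78 Trav14d-3-dv8 cells (2.56%) in combination. Among the other segments of combination, such cells were 28 of 38 Trav10d cells (73.7%) and 17 of 40 Trav16n cells (42.5%), against 7 of 62 Trav16n cells (11.3%) in fusion. By contrast, 2 of 149 Trav13n-1 cells of fusion were of this kind. Constant-region transcripts were present in the cells with few Trbv UMIs: the 116 Trav1 cells had 324 UMIs of Trbc1 and 173 of Trbc2, and the 28 Trav10d cells had 0 and 40. These cells could not enter the pairs, so most cells with Trav1, the leading alpha segment of fusion, are missing from the pairs of that library.

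Beta use of CD8 and CD4 T cells was compared in the libraries with at least 50 beta-assigned CD4 T cells, which were combination, IL15 superagonist and anti-PD1. Trbv12-1 held 4.60%, 5.84% and 3.51% of CD8 T cells in these libraries and 0%, 0% and 1.61% of CD4 T cells. Trbv12-2 held 5.02%, 3.87% and 4.69% of CD8 T cells and 1.15%, 0% and 0% of CD4 T cells. Trbv14 held 5.38%, 4.48% and 3.08% of CD8 T cells and none of the CD4 T cells; over all 5 libraries 0 of 256 CD4 T cells had it, which allows up to 1.43%. Trbv19 held 21.7%, 19.7% and 21.8% of CD8 T cells and 9.20%, 17.5% and 4.84% of CD4 T cells. Trbv16 held 9.46%, 5.92% and 19.2% of CD8 T cells and 9.20%, 0% and 4.84% of CD4 T cells, which is nearly equal in combination. Trbv4 and Trbv5 were too rare to compare, with 2 and 0 of 256 CD4 T cells over all libraries.

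The reverse held for Trbv13-2, with 7.32%, 6.15% and 2.78% of CD8 T cells and 17.2%, 17.5% and 11.3% of CD4 T cells. Trbv31 held 1.99%, 4.55% and 2.78% of CD8 T cells and 9.20%, 12.7% and 8.06% of CD4 T cells, and Trbv3 held 5.02%, 4.17% and 3.81% against 9.20%, 9.52% and 6.45%. Among Trav, Trav1 was higher in CD8 T cells in all 3 libraries, at 5.72%, 3.99% and 18.1%, against 2.44%, 0% and 3.57% of CD4 T cells, and Trav9-2 and Trav5-4 were lower. Trav13-1 was lower in combination, at 2.93% against 4.88%. It was nearly equal in IL15 superagonist (4.18% and 4.545%) and anti-PD1 (7.04% and 7.14%). With only 41, 22 and 28 alpha-assigned CD4 T cells, many Trav seen in CD8 T cells had none there. A two-sided exact permutation test over 3 libraries cannot give a p below 0.25, so none could pass a threshold of 0.05. The segments named here were picked for going one way in all 3 libraries, which fixes that p in advance. It is therefore no result about them. CD4 T cells with a beta segment were few, from 62 to 87 per library.

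**Figure D4:**
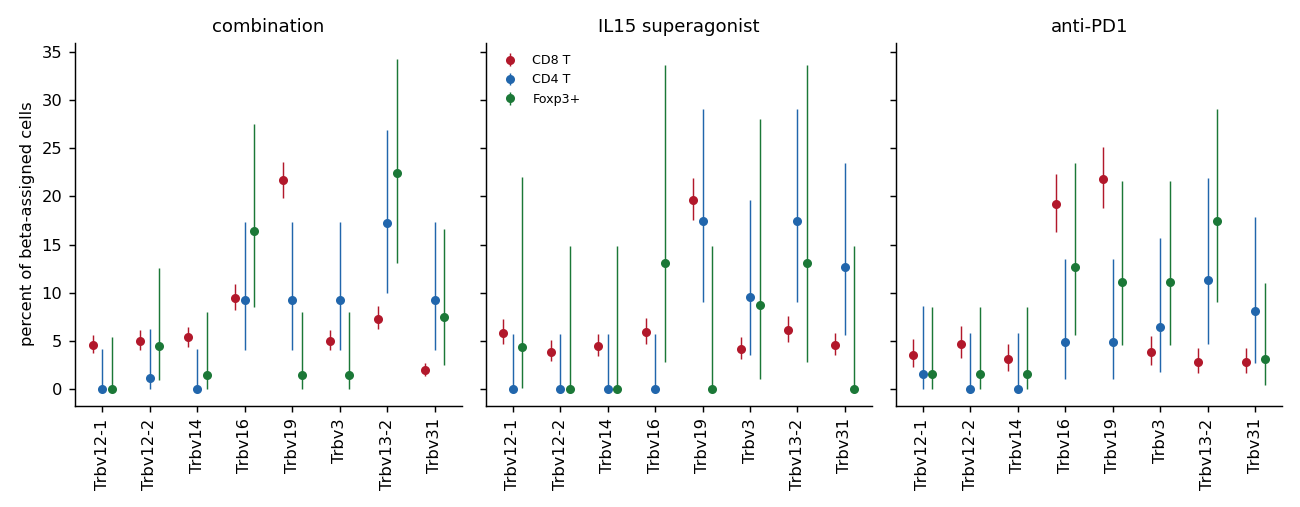
Share of beta-assigned cells (percent) for selected Trbv segments in CD8 T, CD4 T and Foxp3+ cells, in the 3 libraries with at least 50 assigned CD4 T cells. Points are shares and bars exact 95% intervals; Trbv14 is at 0 in CD4 T cells in each panel, and Trbv13-2 is higher there than in CD8 T cells.

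Foxp3+ cells were fewer still. Over all libraries, 180 of them had a beta segment, of which 17.2% were Trbv13-2, 13.9% Trbv16, 5.00% Trbv19, 2.22% Trbv12-2 and 1.67% Trbv12-1. The leading CD8 pairs of all libraries, looked up in every library, were found in 1 of 67 paired CD4 T cells (Trav14-3/Trbv13-1 in combination), 1 of 77 paired Foxp3+ cells (Trav14-1/Trbv13-1 in fusion) and 4 of 292 paired double-negative cells. The CD4 T and the Foxp3+ cell were in libraries where these pairs were not among the leading ones. Repeats of a pair were rare outside CD8 T cells, but fewer cells were paired there, and repeats grow with the number of cells. CD4 T cells had 28 kinds of pair in 29 paired cells of combination, 13 in 13 of IL15 superagonist and 14 in 15 of anti-PD1. Most Foxp3+ cells had a pair of their own too, with Trav7-5/Trbv16 in combination and Trav7-4/Trbv16 in anti-PD1 at 3 cells each as the most repeated. At an equal number of 20 cells, the kinds of pair expected in combination were 17.64 in CD8 T cells and 18.22 in Foxp3+ cells. They were 19.53 in CD4 T cells and 19.62 in double-negative cells of that library. In anti-PD1 they were 14.33 in CD8 T cells and 17.97 in Foxp3+ cells. The gap between CD8 T and Foxp3+ cells was thus small in combination and wider in anti-PD1.

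Of the Trav members, 10 carry DV in their names, since delta chains can use them as well. Among double-negative T cells, 53.4% (46.1 to 60.6) of the 191 cells assigned a DV segment had a gamma-delta constant-region UMI, against 7.10% (4.69 to 10.2) of the 366 cells with another Trav. A beta segment was assigned in 19.9% of the DV cells and 69.4% of the others. In CD8 T cells the gap was smaller, with gamma-delta constant UMIs in 13.4% of 299 DV cells and 8.89% of 3014 others. Trav13-4-dv7 led the double-negative cells with 80, of which 57.5% had such a UMI, followed by Trav15-1-dv6-1 with 36 and Trav15-2-dv6-2 with 28. Trav14d-3-dv8, the leading alpha segment of combination, was instead found mostly in CD8 T cells, in 155 of them and in 7 double-negative cells.

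Segments of invariant T cells were looked for by name. Trav11 and Trav11d, which encode the alpha chain of natural killer T cells, are 100% identical over the shorter transcript. Reads from them may therefore not have been placed on either. Trav11 had 4 UMIs in double-negative T cells and 5 over all barcodes, and Trav11d had 0. Their 0 assigned cells set no limit on such cells. Trav11n, annotated as a pseudogene and 97.7% identical to Trav11, was assigned in 1 of 3313 CD8 T cells and 0 of 557 double-negative cells. Trav1 was assigned in 271 of 3313 CD8 T cells (8.18%) and in 9 of 557 double-negative cells (1.62%). The 36 Trav1/Trbv19 cells of anti-PD1 had 0 UMIs of Zbtb16, the transcription factor of innate-like T cells, among 266643 UMIs. Zbtb16 was near absent in other paired cells too, with 1 UMI over the frequent pairs of anti-PD1 and 0 over those of fusion. Its absence therefore says nothing about the kind of these cells.

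The level of each V segment was then compared between libraries as CPM in CD8 T cells, for genes with at least 20 UMIs over both libraries, with a fold of at least 2 as the call. Against PBS, 47 of 74 V segments were higher in fusion, 61 of 74 in combination, 56 of 67 in IL15 superagonist and 37 of 49 in anti-PD1. Over all genes 8.01%, 5.72%, 6.78% and 2.84% were higher by that rule. Trav13n-1 had 12.7 CPM (830 UMIs) in fusion and 27.8 CPM in IL15 superagonist, against 0.165 CPM (1 UMI) in PBS. Trbv15 had 59.5 CPM in combination, against 1.15 CPM in PBS, a fold of 51.6 (24.9 to 129). Trbv14 went the other way, with 18.7 CPM in fusion and 32.8 CPM in anti-PD1, against 77.1 CPM in PBS, folds of 0.243 and 0.425. Per Trbc UMI those folds were 0.826 (0.742 to 0.921) and 0.685 (0.587 to 0.798), and Trbv14 was higher in combination (1.64) and IL15 superagonist (1.63) than in PBS. Per constant-region UMI, 61 of 74 V segments were at least 2-fold higher and 0 lower in fusion than in PBS, against 47 and 3 by CPM. The divisor itself differed, with 2.459 and 8.364 Trbc and 2.572 and 5.021 Trac UMIs per 10000 in fusion and PBS. That alone raises every fold of fusion over PBS on this scale, and the share over all genes is not given for it. Trbv23 had 1.16 CPM in IL15 superagonist and 1.23 CPM in anti-PD1, against 12.2 CPM in PBS, and its folds per Trbc UMI were 0.187 and 0.162.

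Among the treated libraries, V segments at least 2-fold apart numbered 55 of 87 between fusion and combination, 54 of 85 between fusion and IL15 superagonist and 45 of 78 between fusion and anti-PD1, against 14.3%, 15.7% and 14.4% of all genes. Between combination and IL15 superagonist they numbered 33 of 82 and between combination and anti-PD1 48 of 79, against 2.95% and 5.53% of all genes. Many V segments have few UMIs, and the comparison with all genes was not matched for level. Trav10d had 3 UMIs in fusion and 233 in combination, or 0.0458 and 11.2 CPM. Trav14-3 had 39 UMIs in combination and 434 in IL15 superagonist, or 1.88 and 38.6 CPM. Trav12-3 had 645 UMIs in fusion and 1 in anti-PD1. Trbv26 had 19.2 CPM in combination and 68.6 CPM in anti-PD1, a fold of 0.280 (0.245 to 0.319).

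The state of cells with frequent pairs was set against that of cells whose pair was seen once in the same library. The 3 most frequent pairs had 233 cells in fusion, 99 in combination, 95 in IL15 superagonist and 68 in anti-PD1, and pairs seen once had 115, 157, 128 and 42 cells. Cells of the frequent pairs were deeper, with median depths of 9332, 9330, 9817 and 8334 UMIs, against 7644, 5238, 4429 and 6449 UMIs. Genes of stem-like and naive T cells (Tcf7, Lef1, Ccr7, Il7r and S1pr1) were lower in the frequent pairs. Their sum was 48.2 CPM in the frequent pairs and 193 CPM in pairs seen once in fusion, 319 and 633 CPM in combination, 357 and 1250 CPM in IL15 superagonist, and 86.6 and 494 CPM in anti-PD1. At least 2-fold lower were 4 of 5, 4 of 5, 5 of 5 and 4 of 4 measured genes, where 2.60%, 5.36%, 7.11% and 4.12% of all genes were.

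Tcf7, the transcription factor that keeps the stem-like state, had 2 UMIs in the frequent pairs and 45 in pairs seen once in fusion, 2 and 88 in combination, 4 and 84 in IL15 superagonist and 0 and 29 in anti-PD1. S1pr1, a receptor for leaving tissue, had 1 and 28, 4 and 121, 2 and 87, and 0 and 10 UMIs. Within cells of 5000 to 15000 UMIs, Tcf7 still had 2 and 24, 1 and 33, 1 and 19, and 0 and 9 UMIs. Ccr7, the lymph-node homing receptor, was the exception in combination, with 281 CPM in the frequent pairs and 208 CPM in pairs seen once. In that depth range the ratio of the list in combination was 0.999 (0.847 to 1.18), with no difference beyond counting error, and it was 0.147 (0.0933 to 0.222) without Ccr7. Some intervals of single genes also reached 1 there. Il7r had a ratio of 0.847 (0.534 to 1.36) in IL15 superagonist. Lef1 had 0.587 (0.339 to 1.04) in fusion and 0.291 (0.0426 to 1.72) in anti-PD1.

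Inhibitory receptors and their regulator Tox moved the other way. The sum of Pdcd1, Havcr2, Lag3, Tigit, Tox and Entpd1 was 1527 CPM in the frequent pairs and 1280 CPM in pairs seen once in fusion, 2090 and 1045 CPM in combination, 1925 and 765 CPM in IL15 superagonist, and 1988 and 1373 CPM in anti-PD1. At least 2-fold higher were 0 of 6, 4 of 6, 4 of 6 and 0 of 6 genes, where 2.63%, 5.09%, 7.63% and 3.38% of all genes were. Lag3 had 413 and 89.4 CPM in IL15 superagonist, a fold of 4.62 (3.55 to 6.10), and Tigit was lower in fusion, at 207 and 243 CPM. Genes of the receptor complex (Trac, Trbc1, Trbc2, Cd3e, Cd3d, Cd3g and Cd247) had 4516 to 4633 CPM in the frequent pairs and 4157 to 4588 CPM in pairs seen once, a ratio of 1.01 to 1.09. Its members differed, and Cd3e and Cd3g were higher in each library. Trbc1 was lower, with ratios of 0.377 in fusion, 0.484 in combination, 0.503 in IL15 superagonist and 0.223 in anti-PD1. Trbc2 had 1.10, 0.717, 0.828 and 0.692 in the same order. A list of innate-like genes (Zbtb16, Klrb1c, Klra1, Klra6, Ikzf2 and Ly6c2) had a lower sum in the frequent pairs, and most of its UMIs were of Ly6c2. The ratios of the sum were 0.973 in fusion, 0.302 in combination, 0.324 in IL15 superagonist and 0.715 in anti-PD1. Its members disagreed. In fusion Ly6c2 had 1.085 (1.002 to 1.176) and Ikzf2 0.448 (0.361 to 0.555). In IL15 superagonist Ikzf2 had 2.25 (1.73 to 2.96) and Ly6c2 0.194 (0.170 to 0.221). The sums of the stem-like, inhibitory, receptor-complex and innate-like lists went one way in the 4 libraries. That alone fixes an exact two-sided permutation p of 0.125 each, the smallest that 4 libraries allow. It is therefore no result about these lists. Cell-cycle, cytotoxic and secreted genes were higher in some libraries and lower in others; the 6 cytotoxic genes had 10312 and 7135 CPM in fusion but 2390 and 4915 CPM in combination.

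**Figure D5:**
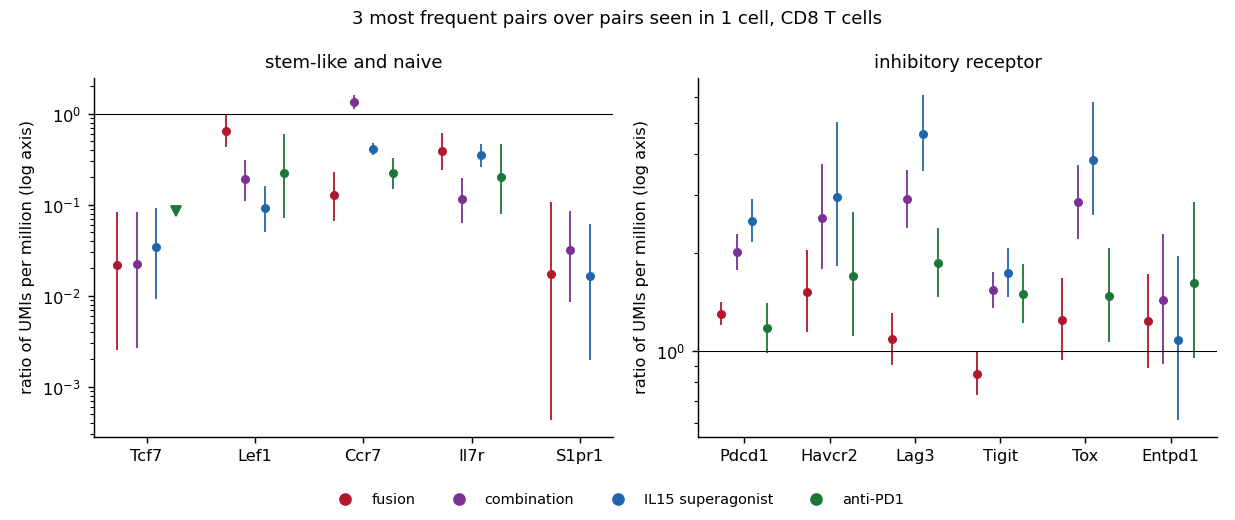
Ratio of CPM between CD8 T cells of the 3 most frequent pairs and cells whose pair was seen once (log axis), for stem-like and naive genes (left) and inhibitory receptor genes (right), by treated library. Points are ratios, bars exact 95% intervals and triangles upper limits for genes with 0 UMIs in the frequent pairs; genes with under 20 UMIs in a library are not drawn, and the stem-like genes drawn lie below 1 except Ccr7 in combination, at 1.35.

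Frequent pairs of one library did not share one level of effector genes. In fusion, Gzma, the granzyme A gene, had 2292 CPM in Trav6-4/Trbv3, 1279 CPM in Trav7-6/Trbv20 and 1452 CPM in Trav14-2/Trbv31 cells, but 104 CPM in Trav13n-1/Trbv16 and 83.2 CPM in Trav13n-1/Trbv13-1 cells. Gzmf, another granzyme gene, had 5637 CPM in Trav13n-1/Trbv16 and 563 CPM in Trav7-6/Trbv20 cells. In IL15 superagonist, Xcl1, a chemokine for dendritic cells, had 1 UMI over the 22 Trav14-3/Trbv13-1 cells (5.85 CPM), against 1190 CPM in Trav13n-1/Trbv1 and 1585 CPM in Trav13n-4/Trbv13-1 cells. In anti-PD1, Gzmf had 0 UMIs in Trav1/Trbv19 cells, 654 CPM in Trav8n-2/Trbv16 and 2098 CPM in Trav12-2/Trbv26 cells. These values are sums over the cells of one pair in one library, and the cells are not replicates.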

How the data were processed

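The authors deposited counts of unique molecular identifiers (UMIs) per gene and barcode for 5 libraries, made with Cell Ranger 2.1.1 on mm10 per the submitters' processing notes. All values were whole numbers; the annotation and the handling of multi-mapped reads are not stated in the labels, and no header or label names a sequencing batch. Barcodes held 39479966 to 81565425 UMIs per treated library and 32832856 in PBS. Cells with at least 200 genes, at most 10% mitochondrial UMIs and markers of a single lineage were kept, 8436 in fusion, 8171 in combination, 6497 in IL15 superagonist, 6947 in anti-PD1 and 5763 in PBS. The marker filter removed 2.55% to 4.73%; T-cell doublets remain.

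CD8 T, CD4 T, Foxp3+ and double-negative T cells were gated on UMIs, and a V segment was assigned per chain at 2 UMIs and 80% of the chain's V UMIs. Summed UMIs were given as CPM with exact Poisson intervals, ratios with exact conditional intervals and shares with Clopper-Pearson intervals, all for counting error only. A fold against a count of 0 used a floor of 3 counts. Kinds of pair at an equal number of cells follow the hypergeometric formula. Depth was checked by thinning cells to 2000 UMIs. Positions and transcripts came from GENCODE M21 (GRCm38/mm10), matched by identifier; identity is that of the shorter transcript within the longer one (edlib). Python 3.11.15, NumPy 2.4.6, SciPy 1.17.1 and pandas 2.3.3 were used. The scripts were tested on simulated data.

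Segments were named by rule: per library the 5 most used per chain, the 3 most frequent pairs with at least 5 cells, segments that differed between CD8 and CD4 T cells in each of 3 libraries by at least 1.5-fold over their sums, and the 3 highest and lowest folds per comparison, from which the text gives examples. The members and gene lists were chosen with earlier results of these data known. A gene of the stem-like list is not reported here, and the list was summed without it. Companion segments, Trbc shares, alpha cells without Trbv and levels per pair were looked at after the data were seen.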

Additional observations from a re-analysis of the deposited data

Results flagged for a closer look

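Gamma and delta V genes are no members, and they had transcripts in the CD8 gate above the level in PBS. Trgv2, the Trgv gene of the tables, had 201.4 CPM in fusion, 83.1 CPM in combination, 78.5 CPM in IL15 superagonist and 42.6 CPM in anti-PD1, against 22.2 CPM in PBS. The 6 Trdv genes together had 3.25 CPM in fusion, 4.47 CPM in combination, 6.94 CPM in IL15 superagonist and 1.72 CPM in anti-PD1, against 0 UMIs in PBS, which allows up to 0.608 CPM. Their part in the alpha and beta results was not tested.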

How the results depend on the processing

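No paired analysis was possible because each treatment has 1 library. None of the results that have a direction reversed, though in combination the stem-like difference was gone in the depth range given below. Over the libraries, the stem-like ratio moved in 14 of 36 alternatives. The count of V segments at least 2-fold apart moved in 12 of 63 and Trbv per Trbc in 2 of 25. For the leading pair, 44 of 50 alternatives stayed within the interval and 39 kept the same pair in front; for the leading Trbv, 42 of 50 and 46. With 1 UMI to assign, the leading pair held 5.41% in fusion (then Trav13n-1/Trbv16), 5.97% in combination, 6.73% in IL15 superagonist and 10.7% in PBS, and the leading Trbv 16.3% in fusion and 20.1% in PBS; with 3 UMIs, Trbv14 held 38.8% in PBS. Thinned to 2000 UMIs, the leading pair held 8.94% in fusion and 6.37% in combination (then Trav14-1/Trbv13-1), the leading Trbv 20.4% in fusion, 17.4% in combination and 41.3% in PBS, and Trbv per Trbc was 2.52 in combination and 1.51 in anti-PD1. With copies merged into subgroups, Trbv13 led with 21.4% in fusion, 21.6% in combination and 25.1% in IL15 superagonist; thinned, Trbv16 led in anti-PD1. The leading pair also changed at 100% purity in fusion and IL15 superagonist, when thinned in IL15 superagonist and PBS, and with 3 UMIs in PBS. Merging lowers the number of V features itself, so its counts of features at least 2-fold apart cannot be set against the unmerged ones. They were 25, 31, 30 and 26 for fusion, combination, IL15 superagonist and anti-PD1 against PBS. For fusion against combination, IL15 superagonist and anti-PD1 they were 19, 21 and 14, and for combination against IL15 superagonist and anti-PD1 they were 8 and 19. With at least 50 UMIs, anti-PD1 against PBS had 24, and with 3-fold, combination had 20 against IL15 superagonist and 28 against anti-PD1. The numbers compared and the shares over all genes are not given for these settings, so the counts do not show whether the share called changed.

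The following alternatives for the ratio of the stem-like list between the 3 most frequent pairs and pairs seen once were chosen after seeing the data. In combination it was 0.999 in cells of 5000 to 15000 UMIs, 0.619 without the first pair, 0.438 without the third, 0.0902 without Ccr7, and 0.147 in that depth range without Ccr7. In IL15 superagonist it was 0.249 in that depth range, 0.235 with pairs ranked 4 to 6, 0.329 and 0.235 without the first and the second pair, and 0.156 without Ccr7. In anti-PD1 it was 0.497 with pairs ranked 4 to 6, 0.124 without the third pair, 0.110 without Ccr7 and 0.0832 in that depth range without Ccr7. The cause of these moves was not tested. With PBS left out, 319 of 487 pairs (65.5%) were found in 1 library, a share that again depends on how many cells were paired. With few V UMIs in PBS, its 14 paired cells set no order among pairs. The 5' reads cannot split identical Trav copies.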

Other observations

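J and D transcripts were nearly absent, which leaves the junction unread. The 60 Traj genes had 78 UMIs in CD8 T cells of fusion, 21 in combination, 21 in IL15 superagonist, 1 in anti-PD1 and 3 in PBS, and the 14 Trbj and 2 Trbd genes had 0 UMIs in CD8 T cells of each library. The Trbv19 cells themselves differed in their constant gene between libraries: Trbc1 made up 50.3% of their Trbc UMIs in fusion, 29.3% in combination, 19.4% in IL15 superagonist and 28.2% in anti-PD1, against 13.9% in PBS. Trbv14 cells had 39.4%, 37.6% and 57.5% in fusion, combination and IL15 superagonist and 6 of 80 UMIs in anti-PD1, against 54.7% in PBS. In combination, 11 Trav12-2/Trbv13-2 cells had 5022 CPM of Xcl1, against 246 CPM in the 49 Trav14d-3-dv8/Trbv19 cells. In IL15 superagonist, the 11 cells of Trav8d-2/Trbv20 had 644 CPM over the stem-like list and those of Trav16n/Trbv1 had 32.8 CPM.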
